A study of Homo sapiens with 12 samples.

Results

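The baseline state of HEL cells was described from the 6 control arrays of a series of 12 arrays. HEL is an established human acute myeloid leukaemia line of erythroleukaemia origin that carries the activating JAK2V617F mutation, in homozygous form per the labels. It is 1 line, and no other line or primary cell was analysed here. All cells of the series had been transduced with lentivirus in a puromycin-selectable pLKO vector. The members were chosen by label alone, as the arrays titled GFP (3 arrays, a control named in the labels both as a vector control and as a control shRNA) and Luc (3 arrays, a hairpin against luciferase, which the cells lack). The other 6 arrays carry hairpins against JAK2 and were not used, and cells without virus were not analysed here. Replicates are numbered in the labels, but nothing says that they were separate cultures, so differences between arrays of a group may be technical in origin. Each SD is over the 6 arrays of both control groups, so it also holds any difference between GFP and Luc.

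Erythroid cells develop from progenitors shared with megakaryocytes, the platelet-forming cells, and both branches use the transcription factor GATA1. GATA1 acts with TAL1, LMO2, LDB1 and KLF1 in the erythroid branch and with FLI1 and RUNX1 in the megakaryocytic branch. JAK2 is the kinase bound to cytokine receptors without kinase activity of their own, such as the erythropoietin receptor EPOR, and it signals through the transcription factors STAT5A, STAT5B and STAT3. HEL cells are a common model of constitutive JAK2 signalling and are known to hold erythroid and megakaryocytic features together.

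Each gene was placed in an intensity band. Of the 11884 genes measured, 6491 (54.6%) lay above the background limit on all 6 arrays, 4757 (40%) lay at or under it on all 6 and are called at background, and 636 were borderline, above it on some arrays only. Of those above it, 1108 genes (9.32% of all genes) were high, 5207 were middle and 176 lay between middle and high. The background limit of an array was the 95th percentile of 83 genes restricted to other tissues, such as lens, pancreas and muscle genes, and lay between 5.42 and 5.59 on the log2 scale (42.9 to 48.2 intensity units). The high limit was the 90th percentile of all genes and lay between 10.49 and 10.55 (1437 to 1504 units).

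All 30 measured housekeeping genes lay above background and 23 were high. The counts of the 83 restricted genes follow from the limit, which was set at their 95th percentile, and check nothing: 76 were at background, 3 were borderline, and 4 lay above it on every array. These 4 were STAR, the mitochondrial cholesterol carrier of steroid-making cells, at 10.10 ± 0.093, the cartilage collagen COL2A1 at 9.85 ± 0.089, the lens crystallin CRYGD at 8.26 ± 0.19 and the lung surfactant protein SFTPB at 5.58 ± 0.11 (mean log2 intensity ± SD, n = 6, as for all values in this form below). A set of 114 probe sets of mouse or rat origin had mean log2 values between 4.01 and 5.34, and none lay above the limit on all 6 arrays. A limit at the 99th percentile of the restricted genes is set by STAR and COL2A1 and left 1601 genes above it.

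A probe set's brightness also depends on its sequence and is not an amount of transcript, so bands were read from the limits, and percentile ranks, or the order of genes within a list, describe the brightness of probe sets and not amounts. Where a gene had several probe sets, the brightest stood for it. That rule moves with the calls: 66.4% of the genes with several probe sets lay above background, against 47.5% of those with 1, and its part in the list counts was not tested beyond the alternatives given at the end. Of the 2957 genes with several probe sets that lay above background, 1096 (37.1%) had their dimmest probe set at background. This is stated beside some of the genes named below, and not beside all. In a bulk sample, fewer cells with a transcript and less transcript per cell cannot be told apart. The arrays were alike: pairwise correlations over all genes lay between 0.996 and 0.998, as a description, and the SD over the 6 arrays had a median of 0.10 among genes above background.

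**Figure D1:**
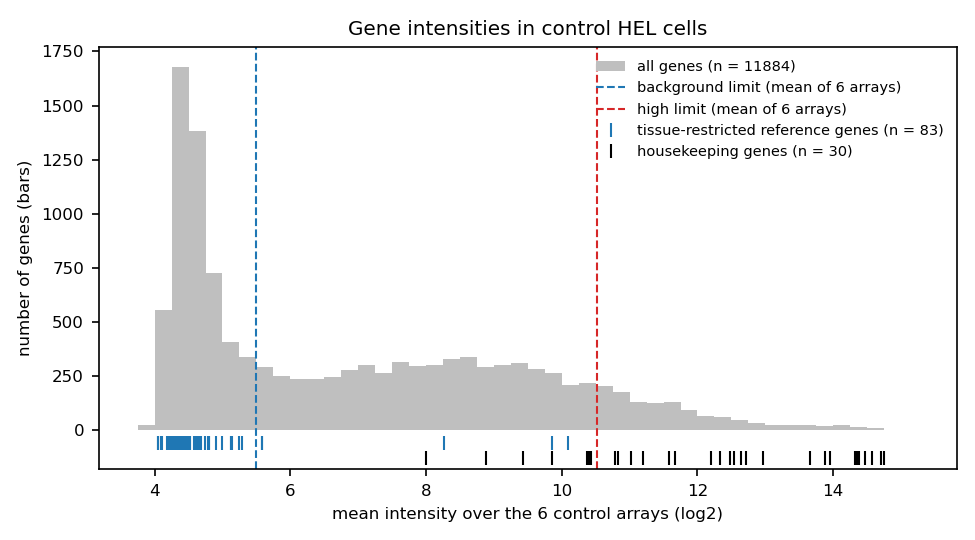
Number of genes (vertical axis) by mean log2 intensity over the 6 control arrays (horizontal axis, bins of equal width), with the 83 tissue-restricted genes (blue ticks) and 30 housekeeping genes (black ticks) below. The dashed lines are the means over the arrays of the background limit and the high limit; all housekeeping genes lie to the right of the background limit, and 4 of the 83 restricted genes, which set that limit, do so on every array.

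The markers of the line were all above background on every array. GATA1, on chromosome X, had log2 values of 9.94, 9.74 and 10.00 on the GFP arrays and 9.92, 9.66 and 9.88 on the Luc arrays. KLF1, an activator of globin and other erythroid genes on chromosome 19, had values of 10.32, 10.37 and 10.37 on the GFP arrays and 10.42, 10.40 and 10.40 on the Luc arrays. GFI1B, a repressor used in both branches and encoded on chromosome 9, had values of 9.34, 9.60 and 9.40 on the GFP arrays and 9.32, 9.47 and 9.48 on the Luc arrays. These 3 factors were middle, at percentile ranks of 85.0, 89.0 and 80.9 among all genes, and the ranges of the GFP and Luc arrays overlapped for GATA1 and GFI1B, while for KLF1 each Luc value was above each GFP value, with group means that differed by 0.05.

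HBZ, the embryonic alpha-like globin on chromosome 16, had values of 8.02, 8.07 and 8.05 on the GFP arrays and 8.11, 7.73 and 8.05 on the Luc arrays. The Luc 2 array was the lowest, and the other 5 arrays lay between 8.02 and 8.11. ITGA2B, the alpha chain of the platelet fibrinogen receptor on chromosome 17, had values of 10.49, 10.43 and 10.38 on the GFP arrays and 10.40, 10.51 and 10.70 on the Luc arrays, with the Luc 3 array the highest. HBZ was middle, and ITGA2B lay between middle and high, above the high limit on some arrays. The kinase JAK2 itself had values of 10.47, 10.40 and 10.68 on the GFP arrays and 10.47, 10.63 and 10.56 on the Luc arrays, which also placed it between middle and high, and its other probe set lay lower, at 8.79, still above background. The control groups did not separate for ITGA2B or JAK2.

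GATA factors bind AGATAA and TGATAA among other forms of their site, and only these forms were searched. The bases upstream of the annotated start are printed for 7 genes that mark the erythroid, megakaryocytic and mast cell sides of the profile, to show how such letters are placed near genes that were well above background and how others lack them. They are the 250 bases before the start (RefSeq, GRCh38.p14, written 5′ to 3′ on the gene's strand), and matches on either strand are in capitals, as TTATCT or TTATCA where the match is on the other strand.

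GATA1 (chrX:48786340-48786589, plus strand): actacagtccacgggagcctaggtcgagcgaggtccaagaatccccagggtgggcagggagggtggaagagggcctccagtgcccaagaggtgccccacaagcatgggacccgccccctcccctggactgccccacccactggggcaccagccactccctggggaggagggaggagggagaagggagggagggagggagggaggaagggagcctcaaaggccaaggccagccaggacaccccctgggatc
KLF1 (chr19:12887202-12887451, minus strand): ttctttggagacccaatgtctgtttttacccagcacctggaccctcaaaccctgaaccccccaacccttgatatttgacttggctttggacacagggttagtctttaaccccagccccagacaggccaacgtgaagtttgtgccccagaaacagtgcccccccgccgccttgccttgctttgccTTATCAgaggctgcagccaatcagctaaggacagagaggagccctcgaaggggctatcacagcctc
ITGA2B (chr17:44389650-44389899, minus strand): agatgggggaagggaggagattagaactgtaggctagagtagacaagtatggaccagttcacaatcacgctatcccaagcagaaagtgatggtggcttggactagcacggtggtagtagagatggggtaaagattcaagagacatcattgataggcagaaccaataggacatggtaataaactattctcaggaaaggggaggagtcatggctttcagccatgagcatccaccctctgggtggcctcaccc
EPOR (chr19:11384315-11384564, minus strand): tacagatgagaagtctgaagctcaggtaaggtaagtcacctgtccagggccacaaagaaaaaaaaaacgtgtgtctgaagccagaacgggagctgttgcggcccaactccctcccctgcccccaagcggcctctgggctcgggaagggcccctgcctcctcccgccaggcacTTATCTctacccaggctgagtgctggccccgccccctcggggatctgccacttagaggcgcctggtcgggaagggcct
RHAG (chr6:49636840-49637089, minus strand): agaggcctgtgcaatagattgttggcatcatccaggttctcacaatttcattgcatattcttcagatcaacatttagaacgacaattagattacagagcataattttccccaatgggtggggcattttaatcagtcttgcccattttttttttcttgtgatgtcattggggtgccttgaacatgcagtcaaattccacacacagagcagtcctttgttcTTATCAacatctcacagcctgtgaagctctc
FCER1A (chr1:159302086-159302335, plus strand): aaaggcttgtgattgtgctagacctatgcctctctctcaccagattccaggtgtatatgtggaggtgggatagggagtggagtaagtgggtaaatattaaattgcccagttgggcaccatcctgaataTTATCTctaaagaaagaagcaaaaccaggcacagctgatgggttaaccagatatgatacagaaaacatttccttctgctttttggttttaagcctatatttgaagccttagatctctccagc
CPA3 (chr3:148865046-148865295, plus strand): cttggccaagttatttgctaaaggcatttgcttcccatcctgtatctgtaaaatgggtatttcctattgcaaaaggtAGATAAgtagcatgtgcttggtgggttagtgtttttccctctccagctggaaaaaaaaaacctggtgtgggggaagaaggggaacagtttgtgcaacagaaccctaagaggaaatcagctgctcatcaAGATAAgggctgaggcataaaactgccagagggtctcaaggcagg

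KLF1, EPOR, RHAG and FCER1A each held 1 match, and CPA3 held 2. GATA1 and ITGA2B held neither AGATAA nor TGATAA in this window, which says only that these letters are not in these bases. Other forms of the site were not searched, and the printed ITGA2B window holds tgatag.

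Among all 6818 genes with 1 window, 9.59% held AGATAA or TGATAA on either strand. The share was 5.55% for high genes, 6.30% for middle genes and 14.7% for genes at background. Among genes of the erythroid lists above background it was 7 of 27 (25.9%). The next lists were counted with members of every band. The share was 5 of 19 (26.3%) for megakaryocyte and platelet genes, 4 of 8 for red cell membrane genes and 4 of 9 for eosinophil, basophil and mast cell genes. It was 1 of 5 for the erythroid transcription factor list, 1 of 18 for glycolysis and 0 of 12 for respiratory chain genes. Base composition differed along with the bands: the median window held 22 CpG pairs for high and for middle genes and 11 for genes at background, with a median GC content of 63.6% for high genes and 60.4% at background. The letters TATAAA were in 4.34% of middle and 15.4% of background windows, and GGGCGG in 71.7% of middle and 48.1% of background windows. These shares are descriptions of letters, with no test, and the part of base composition in them was not tested.

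Over the 6 erythroid lists together, 69 of 80 measured genes (86.2%) lay above background and 24 were high, against 54.6% and 9.32% of all genes, and 9 were at background.

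The list of erythroid transcription factors also held TRIM58, a ubiquitin ligase. Of its 13 measured genes, 12 lay above background and none was at background on all arrays. High were NFE2 at 11.52 ± 0.089, an activator of globin and platelet genes; TAL1 at 11.47 ± 0.043, the partner of LMO2; MYB at 11.33 ± 0.12, a factor of proliferating progenitors; and LMO2 at 10.90 ± 0.086, the bridge of the complex. NFE2 ranged from 11.42 to 11.64 with a median of 11.52, above the high limit on each array. For TAL1 and MYB the probe sets disagreed: of the 3 TAL1 probe sets 1 was high, 1 middle and 1 at background, and of the 2 MYB probe sets 1 was at background, so the high band of each factor rests on 1 probe set. The middle band held LDB1 at 8.69 ± 0.095, the adaptor that joins distant elements; BCL11A at 8.31 ± 0.10, the repressor of fetal globin genes; BACH1 at 8.20 ± 0.026, a haem-sensed repressor; TRIM58 at 7.64 ± 0.15; and KLF3 at 6.75 ± 0.18. ZBTB7A, another repressor of fetal globin, was borderline at 5.44 ± 0.16 and lay above the limit on 3 of 6 arrays.

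The globins differed by band. The fetal gamma chains HBG2 (14.74 ± 0.063) and HBG1 (14.69 ± 0.040) were among the 25 brightest of all genes, the alpha chains HBA2 (13.39 ± 0.032) and HBA1 (13.32 ± 0.15) were high, and the embryonic epsilon chain HBE1 was high at 11.51 ± 0.086. The adult chains HBB (8.84 ± 0.14) and HBD (8.10 ± 0.18) were middle, as were HBZ (8.01 ± 0.14) and HBQ1 (7.55 ± 0.18). HBB ranged from 8.65 to 9.02 with a median of 8.80, HBG2 from 14.63 to 14.79 with a median of 14.77, and no array left its band for either gene. AHSP, the chaperone that binds free alpha chains, was at background on all 6 arrays (4.88 to 5.18). HBG1 and HBG2, and HBA1 and HBA2, are near-identical copies whose signals cannot be split with certainty. The other HBE1 probe set was at background (4.37).

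The list for haem also held genes of its breakdown, and all 12 of its measured genes lay above background. Among the genes of synthesis, UROD, a mid-pathway decarboxylase, was high at 12.71 ± 0.033, and CPOX, a late oxidase, lay between middle and high at 10.67 ± 0.093. In the middle band were ALAS1 at 9.75 ± 0.026, the first enzyme of the path in all tissues; ALAD at 7.28 ± 0.12; UROS at 8.99 ± 0.087; PPOX at 8.85 ± 0.12; FECH at 9.46 ± 0.072, which inserts the iron; and SLC25A38 at 8.66 ± 0.039, the mitochondrial glycine carrier. Among the genes of breakdown, the haem oxygenases were middle, HMOX2 at 7.82 ± 0.16 and the stress-induced HMOX1 at 5.75 ± 0.10, close to the limit. Of the biliverdin reductases, BLVRA was high at 10.78 ± 0.12, with 1 of its probe sets at background, and BLVRB was middle at 9.63 ± 0.10. ALAS2 was not analysed here.

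Of 9 iron genes, 8 lay above background and 3 were high. The transferrin receptor TFRC was high at 13.96 ± 0.10, with values from 13.80 to 14.09 and a median of 13.97. Ferritin light chain FTL was high at 13.76 ± 0.037 and the iron-sulfur cluster protein GLRX5 at 11.38 ± 0.058. The middle band held the mitochondrial iron importer SLC25A37 at 9.87 ± 0.16, the second transferrin receptor TFR2 at 9.54 ± 0.10, the iron-regulatory protein ACO1 at 9.10 ± 0.076, the endosomal reductase STEAP3 at 9.06 ± 0.091 and the transporter SLC11A2 at 7.50 ± 0.21. HFE, a modulator of hepcidin best known from liver, was at background at 4.78 ± 0.11.

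The red cell membrane list was split. Of 21 genes, 16 lay above background, 5 of them high, 1 was borderline and 4 were at background. The Rhesus complex was high: RHAG ranged from 12.16 to 12.36 with a median of 12.30, with all 3 probe sets above background, and RHCE stood at 10.85 ± 0.027, RHD at 10.79 ± 0.082 and the adhesion glycoprotein ICAM4 at 11.05 ± 0.061. RHD and RHCE are near-identical copies, and RHD is counted with the other erythroid genes below and not in this list. EPB42, which links the anion exchanger to the skeleton, was high at 11.05 ± 0.042, and stomatin, STOM, at 10.97 ± 0.078. The linker ANK1 was middle at 9.88 ± 0.088, above background on all 5 probe sets, whereas SPTB (7.15 ± 0.19) and EPB41 (7.24 ± 0.15) were middle on 1 of 2 probe sets each and at background on the other.

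Other blood-group and skeleton genes were middle. These were XK at 10.24 ± 0.052, ACKR1 at 9.14 ± 0.094, ERMAP at 8.96 ± 0.076, CD44 at 8.85 ± 0.066, KEL at 8.01 ± 0.087, DMTN at 7.75 ± 0.14, TMOD1 at 6.71 ± 0.11 and ADD2 at 6.39 ± 0.16. STOM, CD44 and ADD2 each also had at least 1 probe set at background. ART4 was borderline at 5.73 ± 0.22. At background were SLC4A1, the anion exchanger and the main membrane protein of mature red cells, with values from 4.74 to 4.91; the water channel AQP1 (4.65 ± 0.14); BCAM (4.55 ± 0.18); and the urea transporter SLC14A1 (4.14 ± 0.067).

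Of 15 other erythroid genes, 12 lay above background and 5 were high. Carbonic anhydrase CA1 was high at 12.83 ± 0.033 on 1 of 2 probe sets, and its relative CA2 was middle at 8.79 ± 0.040. BNIP3L, which removes mitochondria from maturing cells, was high at 11.14 ± 0.12, and SELENBP1 at 11.06 ± 0.063, UBE2L6 at 10.95 ± 0.060 and RHD were high too. XPO7 was middle at 10.16 ± 0.090. At background were BPGM, the enzyme of bisphosphoglycerate synthesis (5.15 ± 0.15), TSPO2 (4.60 ± 0.15) and PKLR, the red cell and liver pyruvate kinase (4.56 ± 0.11).

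**Figure D2:**
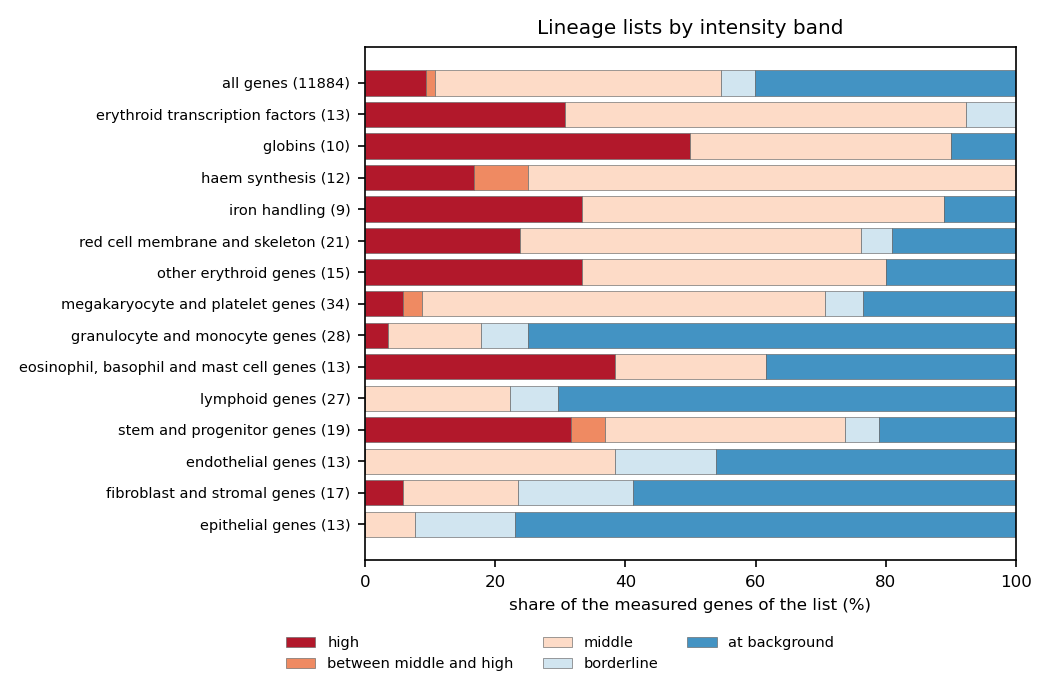
Share of the measured genes of each lineage list (horizontal axis, percent; number measured in brackets) in the 5 intensity bands over the 6 control arrays, with all 11884 genes on top. The erythroid lists have few genes at background, whereas 21 of 28 granulocyte and monocyte genes and 19 of 27 lymphoid genes lie there.

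Of 34 megakaryocyte and platelet genes, 24 (70.6%) lay above background, against 54.6% of all genes, and 2 (5.88%) were high, against 9.32% of all genes; 2 were borderline and 8 were at background. FLI1, the transcription factor of this branch, was high at 10.88 ± 0.077, and so was ARHGDIB, an inhibitor of small GTPases found across blood cells, at 13.25 ± 0.045. For ITGA2B, 3 of 4 probe sets lay above background.

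Among the surface receptors of platelets, ITGB3, the partner of ITGA2B, ranged from 7.42 to 8.11 with a median of 7.73; its GFP mean was 7.57 and its Luc mean 7.89, with overlapping arrays, and 3 of its 7 probe sets lay above background and 4 at it. The von Willebrand factor receptor chain GP1BA stood at 8.79 ± 0.10, GP9 at 6.81 ± 0.31, GP5 at 6.76 ± 0.15 and the collagen receptor GP6 at 5.79 ± 0.17, all middle, while GP1BB was borderline at 5.52 ± 0.18. GP9 was lowest on the GFP 3 array (6.22) and between 6.69 and 7.07 on the others. The thrombin receptors F2R (7.95 ± 0.080) and F2RL2 (6.45 ± 0.17) and the ADP receptor P2RY1 (5.93 ± 0.053) were middle. The receptors CLEC1B (4.95 ± 0.19) and ITGA2 (4.40 ± 0.19) were at background.

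Among the enzymes of this branch, PTGS1, the cyclooxygenase of platelets, was middle at 10.25 ± 0.11, ALOX12 at 8.62 ± 0.081 and TBXAS1, thromboxane synthase, at 5.96 ± 0.17. The nitric oxide receptor subunits GUCY1B1 and GUCY1A1 stood at 10.02 ± 0.045 and 6.03 ± 0.17. Also middle were SRGN (10.43 ± 0.086), PECAM1 (10.18 ± 0.085), CD36 (10.04 ± 0.054, with 1 of 3 probe sets at background), NRGN (9.96 ± 0.15), SELP (8.32 ± 0.11), CD9 (7.53 ± 0.072) and RAB27B (7.28 ± 0.13).

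Granule and secreted proteins fell on both sides of the limit. SELP and SRGN were middle, as given above, and PF4, a platelet granule chemokine, was middle at 6.68 ± 0.088. The granule proteins PPBP (4.60 ± 0.18), VWF (4.42 ± 0.15), F13A1 (4.46 ± 0.13) and MMRN1 (5.11 ± 0.11) and the platelet tubulin TUBB1 (5.16 ± 0.16) were at background on all 6 arrays. PPBP ranged from 4.38 to 4.82 and VWF from 4.23 to 4.65, both inside the range of the means of the rodent probe sets. The chemokine PF4V1 (3.93 to 4.09) was at background too, and THBS1 was borderline at 5.29 ± 0.12.

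Of 13 genes on the list of eosinophil, basophil and mast cell genes, 8 (61.5%) lay above background, against 54.6% of all genes, and 5 (38.5%) were high, against 9.32% of all genes. FCER1A, the IgE-binding chain of the high-affinity IgE receptor, ranged from 13.20 to 13.32 with a median of 13.28. HDC, which makes histamine, ranged from 11.57 to 11.74 with a median of 11.69. The granule protease CPA3 stood at 10.94 ± 0.13, the stem cell factor receptor KIT at 10.75 ± 0.14 and GATA2 at 10.85 ± 0.069; KIT and GATA2 are also progenitor genes, and 1 of 3 GATA2 probe sets was at background. No GFP or Luc array of FCER1A, HDC or CPA3 fell under the high limit.

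The rest of that list was divided. PRG2, the major basic protein of eosinophils, was middle at 10.39 ± 0.050, the amine transporter SLC18A2 at 9.89 ± 0.12 and tryptase TPSAB1 at 6.24 ± 0.10. At background were the mast cell chymase CMA1 (4.44 ± 0.15), the eosinophil peroxidase EPX (4.45 ± 0.12), CLC (4.50 ± 0.10), the interleukin-5 receptor chain IL5RA (4.57 ± 0.15) and ENPP3 (4.20 ± 0.10).

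Granulocyte and monocyte genes were mostly at background, 21 of 28 (75% of the list, against 40% of all genes), and 5 lay above the limit. MS4A3, a membrane protein of early granulocytic and basophilic cells, was the exception in the high band, from 12.17 to 12.28 with a median of 12.22. Middle were the factors CEBPB (8.43 ± 0.14) and SPI1 (8.19 ± 0.11), the integrin ITGAM (6.59 ± 0.14, with its other probe set at background) and the granule protease CTSG (6.15 ± 0.12); CEBPA (5.45 ± 0.17) and VCAN (5.61 ± 0.25) were borderline. The defining granule proteins were at background: MPO ranged from 4.26 to 4.77, ELANE stood at 4.39 ± 0.077, PRTN3 at 4.57 ± 0.22, AZU1 at 4.51 ± 0.17, LTF at 4.88 ± 0.21 and CAMP at 4.72 ± 0.16. Monocyte genes behaved alike, with CD14 at 4.43 ± 0.15, CSF1R at 4.89 ± 0.11, FCN1 at 4.96 ± 0.086, CD68 at 4.62 ± 0.080, CD163 at 4.60 ± 0.19 and LILRB1 at 4.50 ± 0.21. Background values also held for S100A8, S100A9, S100A12, CEACAM8, CEBPE, FCGR1A, FCGR3B, CSF3R and ITGAX, between 4.17 for CEACAM8 and 4.67 for FCGR1A. With a limit at the lowest 30% of all genes, 8 of the 28 lay above it.

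Of 19 stem and progenitor genes, 14 (73.7%) lay above background and 6 (31.6%) were high, against 54.6% and 9.32% of all genes. High were ALDH1A1 (11.91 ± 0.11), LYL1 (11.30 ± 0.12), RUNX1 (10.89 ± 0.052), GATA2, KIT and MLLT3 (10.70 ± 0.046). The high band of RUNX1 rests on the brightest of its 7 probe sets. The next was middle at 6.72, and the lowest was borderline at 5.76. HHEX lay between middle and high at 10.54 ± 0.075. MECOM (8.75 ± 0.12), MEIS1 (7.87 ± 0.11), IKZF1 (8.16 ± 0.13), THY1 (9.73 ± 0.078), NFE2L2 (9.53 ± 0.028), ETV6 (6.29 ± 0.23) and ERG (6.17 ± 0.10) were middle, with MECOM above background on 1 of 3 probe sets. The surface antigen CD34 was at background on every array, from 4.86 to 5.31, as were the receptor kinase FLT3 (4.48 ± 0.073), PROM1 (4.26 ± 0.072) and HLF (4.47 ± 0.15), and TEK was borderline at 5.38 ± 0.13.

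Of 27 lymphoid genes, none was high and 19 (70.4%) were at background, against 40% of all genes. The 6 above background were CD2 (8.95 ± 0.10), CD4 (7.19 ± 0.16, on 1 of 2 probe sets), CD79B (7.04 ± 0.24), IL7R (6.88 ± 0.13), PRF1 (6.80 ± 0.17) and NKG7 (5.75 ± 0.15). CD2, an adhesion receptor of T cells, ranged from 8.79 to 9.06, well clear of the limit, while the T-cell receptor chains CD3D (4.69 to 5.32), CD3E (4.52 ± 0.14) and CD3G (4.29 ± 0.091) and their kinases LCK (4.37 ± 0.17) and ZAP70 (4.67 ± 0.077) were at background. The B-cell genes PAX5 (4.85 ± 0.062), MS4A1 (4.55 ± 0.15), CD22 (4.31 ± 0.089) and IGHM (4.67 ± 0.17) were at background, CD79A and CD27 were borderline at 5.69 ± 0.23 and 5.41 ± 0.16, and CD5, CD7, CD8A, CD8B, CD28, CD38, KLRD1, RAG1, GZMA and GZMB were at background. With the limit at the lowest 30% of all genes, 11 lay above it.

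Markers of cell types outside blood had 26 of 43 genes at background (60.5%, against 40% of all genes). Of 17 fibroblast and stromal genes, 10 were at background, among them COL3A1 (4.39 ± 0.15), POSTN (4.35 ± 0.12), FAP (4.34 ± 0.077) and LUM (4.01 ± 0.073), and FN1 (5.68 ± 0.17), PDGFRA (5.42 ± 0.18) and PDGFRB (5.41 ± 0.10) were borderline. Above background were 4 genes: VIM, the intermediate filament of most cultured cells, high at 12.73 ± 0.13, and DCN (10.16 ± 0.094), THY1 and SPARC (8.58 ± 0.10) in the middle band. Of 5 DCN probe sets only the brightest lay above background. Of 13 epithelial genes, 10 were at background and 1 lay above it, KRT18 at 7.15 ± 0.17 (2 without the Luc 2 array), with MUC1 (5.74 ± 0.13) and ESRP1 (5.26 ± 0.26) borderline and EPCAM at 4.24 ± 0.11 and CDH1 at 4.63 ± 0.046 at background. Of 13 endothelial genes, 6 (46.2%) were at background, a share near that of all genes. Above background were 5, PECAM1, TIE1 (9.52 ± 0.078), PLVAP (8.49 ± 0.16), ENG (7.65 ± 0.15) and ERG, while CDH5 (4.49 ± 0.076), CLDN5 (4.46 ± 0.073) and EMCN (4.44 ± 0.094) were at background and NOS3 (5.37 ± 0.23) was borderline.

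**Figure D3:**
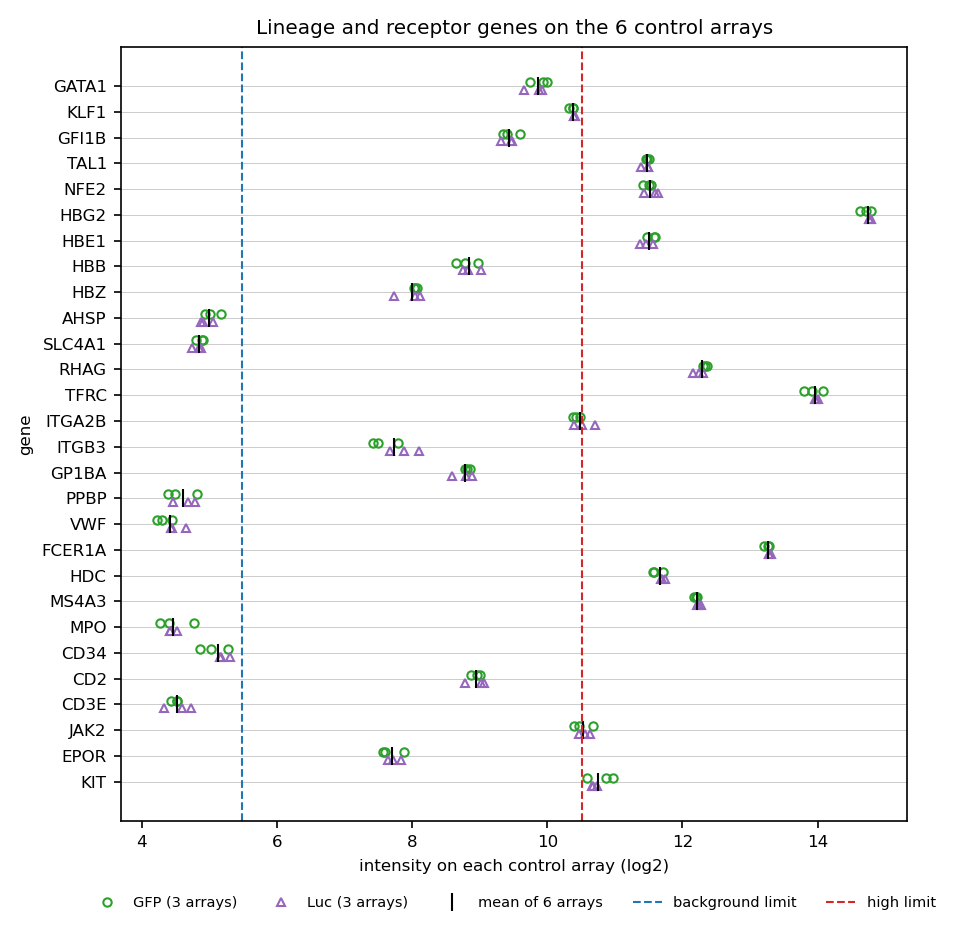
Log2 intensity (horizontal axis) of lineage and receptor genes on each of the 3 GFP arrays (green circles) and 3 Luc arrays (purple triangles), with the mean of the 6 (black bar) and the mean limits (dashed). HBG2, FCER1A, MS4A3 and RHAG are high on all 6 arrays, and AHSP, SLC4A1, PPBP, VWF, MPO, CD34 and CD3E are at background on all 6. ITGA2B and JAK2 lie above the high limit on some arrays only.

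Of 187 receptor genes and their direct partners, 66 (35.3%) lay above background, against 54.6% of all genes, 4 were high (ITGB1, ITGA4, ITGAE and KIT), 21 were borderline and 100 were at background. With the dimmest probe set of each gene, 41 lay above the limit. A background value bears on the probe sets and not on the protein.

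Of 12 receptors that couple to JAK2, 5 (41.7%) lay above background, all middle, against 54.6% of all genes. EPOR ranged from 7.57 to 7.87 with a median of 7.68, the GFP and Luc arrays overlapped, and 5 of its 6 probe sets lay above background. CSF2RB, the common beta chain of the interleukin-3, interleukin-5 and GM-CSF receptors, stood at 10.21 ± 0.11, but each of its measured alpha chains was at background: IL3RA at 4.61 ± 0.11, IL5RA at 4.57 ± 0.15 and CSF2RA at 4.38 ± 0.061. IFNGR1 (8.89 ± 0.11) and IFNGR2 (7.83 ± 0.16), both chains of the interferon-gamma receptor, were middle, and the leptin receptor LEPR was middle at 8.46 ± 0.051 with 4 of 5 probe sets above background. The G-CSF receptor CSF3R (4.51 ± 0.22), growth hormone receptor GHR (4.10 ± 0.067), prolactin receptor PRLR (4.94 ± 0.12) and CRLF2 (4.84 ± 0.22) were at background.

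Of 20 other class I and II cytokine receptors, 11 (55%) lay above background, a share near the 54.6% of all genes, and none was high. The common gamma chain IL2RG stood at 10.35 ± 0.13, the interferon receptor chains IFNAR2 at 9.95 ± 0.047 and IFNAR1 at 6.16 ± 0.33, IL27RA at 9.14 ± 0.14 and IL10RB at 8.55 ± 0.11. The shared signal chain IL6ST was middle at 7.81 ± 0.23 on 2 of 5 probe sets, and of the chains that pair with it IL27RA was middle, while IL6R (4.33 ± 0.060), LIFR (4.02 ± 0.11) and OSMR (4.57 ± 0.19) were at background. IL2RA (4.44 ± 0.089) and IL12RB2 (4.39 ± 0.14) were at background, and IL13RA1 (5.37 ± 0.068) and IL21R (5.37 ± 0.13) were borderline.

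Receptor tyrosine kinases had few members above background, 6 of 35 (17.1%), with 24 (68.6%) at background, against 54.6% and 40% of all genes. KIT was high, from 10.59 to 10.97 with a median of 10.71. TIE1 (9.52 ± 0.078), FGFR3 (8.68 ± 0.090), IGF1R (8.61 ± 0.14), EPHB4 (7.03 ± 0.18) and TYRO3 (6.01 ± 0.16) were middle. FGFR1, PDGFRA, PDGFRB, TEK and ERBB2 were borderline, between 5.20 and 5.47, and the lowest were INSR (4.42 ± 0.085), ERBB4 (4.39 ± 0.084), ERBB3 (4.34 ± 0.079) and EPHA2 (4.31 ± 0.10). FGFR3 and IGF1R each had 1 of 3 probe sets at background.

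Adhesion receptors held 3 of the 4 high members. Of 22 integrin chains, 10 (45.5%) lay above background and 11 (50%) were at background, against 54.6% and 40% of all genes. High were the shared beta chain ITGB1 (11.48 ± 0.042), its partner ITGA4 (11.03 ± 0.081) and ITGAE (10.92 ± 0.10); for ITGB1 only 1 of 5 probe sets lay above background. Middle were the leukocyte beta chain ITGB2 (8.53 ± 0.084), ITGAV (8.37 ± 0.035), ITGA5 (8.22 ± 0.11), ITGB3, ITGB5 (6.84 ± 0.11) and ITGAM, and ITGB7 was borderline at 5.56 ± 0.18. The lowest were ITGB6 (4.34 ± 0.12), ITGAX (4.36 ± 0.075), ITGA2 and ITGA6 (4.40 ± 0.069).

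Of 14 TNF and death receptors, 4 (28.6%) lay above background, against 54.6% of all genes. They were TNFRSF1A (8.26 ± 0.28), LTBR (7.74 ± 0.063), TNFRSF25 (7.26 ± 0.079) and CD40 (6.59 ± 0.14). FAS (5.38 ± 0.084), TNFRSF10B (4.61 ± 0.13), TNFRSF1B (4.48 ± 0.11) and NGFR (4.34 ± 0.073) were at background, and TNFRSF12A (5.48 ± 0.19) and TNFRSF9 (5.37 ± 0.19) were borderline. Of 25 chemokine and other G protein-coupled receptors, 7 (28%) lay above background, led by the adenosine receptor ADORA2B (9.82 ± 0.066), the chemokine-binding ACKR1 and F2R. CXCR4 and PTAFR stood at 6.43 ± 0.18 and 6.43 ± 0.10 and P2RY2 at 5.83 ± 0.10. TBXA2R was borderline at 5.36 ± 0.16, and CCR2 (4.36 ± 0.16), CCR7 (4.33 ± 0.093), PTGER2 (4.19 ± 0.073) and C5AR1 (4.11 ± 0.079) were among the lowest.

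In the TGF-beta and BMP list, 8 of 18 genes (44.4%) lay above background, against 54.6% of all genes. The signal carriers SMAD2 (9.74 ± 0.084), SMAD4 (8.59 ± 0.14) and SMAD3 (6.95 ± 0.11), the inhibitor SMAD6 (9.07 ± 0.10) and the receptors ACVR1B (8.14 ± 0.13), ENG and ACVR1 (7.48 ± 0.17) were middle. Above background were only 1 of 6 probe sets of ACVR1B, 1 of 4 of SMAD3, 1 of 2 of SMAD4, 1 of 2 of ENG and 2 of 4 of SMAD6. For SMAD2 all 3 lay above it. Other receptors were dimmer. TGFBR1 (5.48 ± 0.23), BMPR2 (5.57 ± 0.18), ACVR2A (5.29 ± 0.12) and ACVR2B (5.30 ± 0.27) were borderline. TGFBR2 (4.63 ± 0.11), TGFBR3 (4.52 ± 0.11), ACVRL1 (4.49 ± 0.13) and BMPR1B (4.30 ± 0.15) were at background. The BMP signal carriers differed: SMAD5 was middle at 6.37 ± 0.18, with its other probe set borderline, and SMAD1 was at background (4.30 ± 0.12).

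Of 17 Notch, Wnt and Hedgehog receptors, 4 (23.5%) lay above background, against 54.6% of all genes. They were NOTCH2 (9.64 ± 0.085), FZD6 (7.44 ± 0.094), NOTCH1 (6.51 ± 0.22) and FZD3 (6.05 ± 0.065). LRP6, SMO, LRP5, FZD7 and FZD2 were borderline, between 5.42 and 5.81, and PTCH1 (4.55 ± 0.11), FZD9 (4.50 ± 0.10), FZD8 (4.31 ± 0.13) and FZD1 (4.27 ± 0.085) were the lowest. Of 24 nuclear receptors, 11 (45.8%) lay above background, against 54.6% of all genes, and none was high. The orphan receptor NR2C1 (7.83 ± 0.13), the retinoid receptors RARA (7.54 ± 0.14) and RXRB (7.51 ± 0.065), the vitamin D receptor VDR (7.34 ± 0.12), PPARD (6.54 ± 0.044) and the glucocorticoid receptor NR3C1 (6.34 ± 0.20) were middle, NR4A1 was borderline at 5.67 ± 0.17, and NR4A2 (4.56 ± 0.10), PPARG (4.27 ± 0.10), RXRG (4.25 ± 0.11) and PGR (4.20 ± 0.10) were the lowest.

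Of 206 genes for signalling inside the cell, 155 (75.2%) lay above background and 25 (12.1%) were high, against 54.6% and 9.32% of all genes. The JAK and STAT list was above background throughout, 9 of 9. JAK1 was high, from 11.15 to 11.30, and so was STAT3, from 11.11 to 11.29. STAT5B (9.53 ± 0.12), TYK2 (9.34 ± 0.093), STAT5A (9.31 ± 0.048), STAT6 (8.17 ± 0.14) and STAT4 (8.01 ± 0.090) were middle. JAK3 was middle at 5.89 ± 0.25 on 1 of 3 probe sets, with its lowest array at 5.48, close to the limit. STAT2 was not analysed here.

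Inhibitors of this pathway fell on both sides, in shares near those of all genes. Of 20, 12 (60%) lay above background and 7 (35%) were at background, against 54.6% and 40% of all genes. The phosphatases PTPN6 (11.48 ± 0.055) and PTPN11 (11.29 ± 0.057) were high, and PTPRC (9.94 ± 0.25), PTPN2 (9.43 ± 0.10), PTPN1 (7.14 ± 0.11) and the STAT inhibitors PIAS1 (9.90 ± 0.094), PIAS2 (8.78 ± 0.083) and PIAS4 (5.68 ± 0.095) were middle. The SOCS family, feedback inhibitors induced by STATs, was split. CISH ranged from 8.13 to 8.53 with a median of 8.35, SOCS2 from 7.77 to 7.99 with a median of 7.89, and SOCS5 stood at 7.61 ± 0.14. SOCS1 (4.72 ± 0.24), SOCS3 (5.21 ± 0.11), SOCS6 (4.71 ± 0.12) and SOCS7 (4.55 ± 0.14) were at background on every array. The adaptor SH2B1 was middle at 6.09 ± 0.18, CBLB was borderline at 5.32 ± 0.16, and PIAS3 (5.37 ± 0.044), CBL (5.02 ± 0.12) and SH2B2 (4.99 ± 0.11) were at background.

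Of 14 known STAT5 growth and survival targets, 11 (78.6%) lay above background, against 54.6% of all genes, and 3 were high. MYC ranged from 12.66 to 12.81 with a median of 12.75, CCND2 stood at 11.81 ± 0.072 and CCND3 at 11.45 ± 0.082. MCL1 (10.52 ± 0.053) and ID1 (10.28 ± 0.17) lay between middle and high. The survival kinases PIM1 (9.62 ± 0.067) and PIM2 (9.23 ± 0.059), BCL2L1 (8.72 ± 0.11), CISH, SOCS2 and IRF1 (7.26 ± 0.10) were middle. OSM (4.56 ± 0.20), BCL6 (4.44 ± 0.10), which STAT5 represses, and CCND1 (4.45 ± 0.12) were at background, so of the D-type cyclins 2 were high and 1 was at background.

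**Figure D4:**
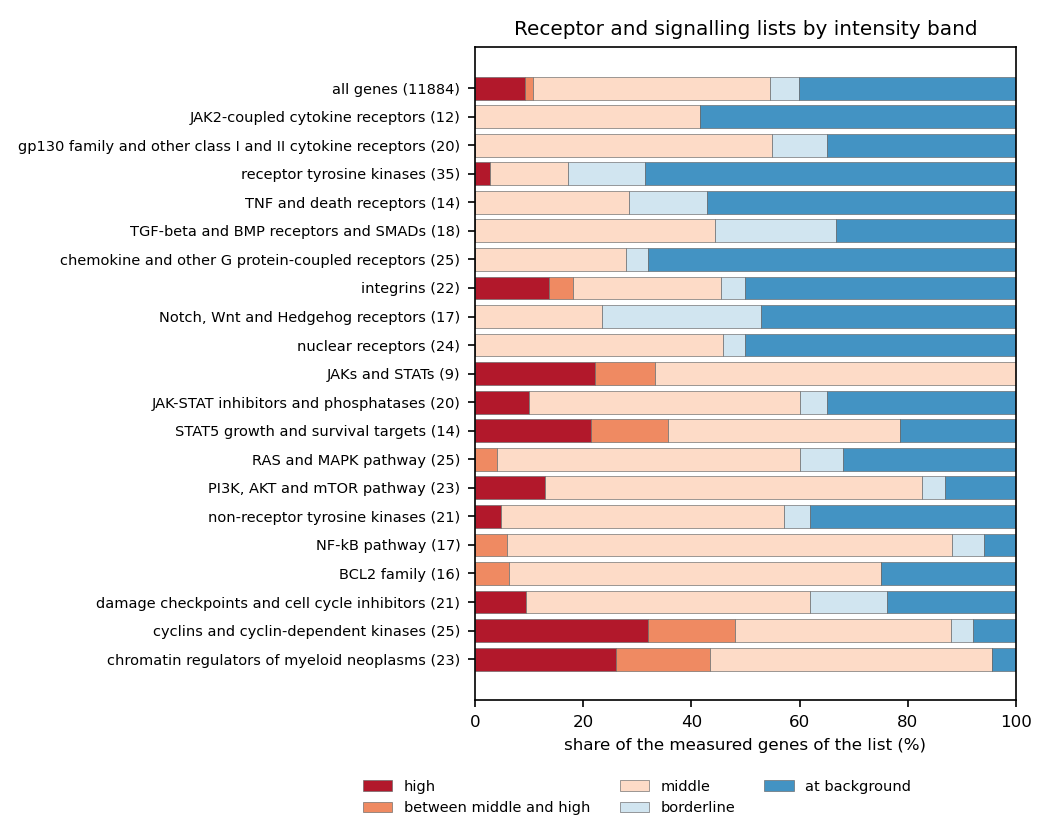
Share of the measured genes of each receptor and signalling list (horizontal axis, percent; number measured in brackets) in the 5 intensity bands over the 6 control arrays, with all 11884 genes on top. The 9 JAKs and STATs have no gene at background, whereas 24 of 35 receptor tyrosine kinases and 17 of 25 G protein-coupled receptors lie there.

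Of 25 RAS and MAPK genes, 15 (60%) lay above background, near the 54.6% of all genes, and none was high. The adaptor SHC1 lay between middle and high at 10.42 ± 0.10 with 1 of 3 probe sets at background, and MAP2K2 (9.77 ± 0.11), GRB2 (9.62 ± 0.16), MAP2K1 (9.02 ± 0.069), MAPK9 (8.01 ± 0.11) and ARAF (7.94 ± 0.11) followed in the middle band. The immediate output genes were at background: FOS at 4.38 ± 0.14, EGR1 at 5.16 ± 0.14, DUSP6 at 5.33 ± 0.10, DUSP4 at 4.73 ± 0.14, SPRY1 at 5.03 ± 0.22 and SPRY4 at 4.56 ± 0.16, while DUSP5 (6.45 ± 0.20), SPRY2 (6.58 ± 0.14) and ETV5 (7.56 ± 0.16) were middle. SOS2 (5.72 ± 0.25) and RASA2 (5.51 ± 0.10) were borderline.

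Of 23 PI3K, AKT and mTOR genes, 19 (82.6%) lay above background, against 54.6% of all genes. EIF4EBP1, the translation repressor under mTOR control, was high at 12.02 ± 0.047, RHEB at 10.92 ± 0.066 and the catalytic subunit PIK3CB at 10.62 ± 0.036. INPP5D, a lipid phosphatase of blood cells, stood at 9.93 ± 0.054, FOXO3 at 9.75 ± 0.091 and GSK3B at 8.31 ± 0.17, PIK3CG was borderline at 5.57 ± 0.18, and AKT2 (4.91 ± 0.14), PIK3R5 (4.83 ± 0.10) and FOXO1 (4.59 ± 0.18) were at background. Among 21 non-receptor tyrosine kinases, 12 (57.1%) lay above background, near the 54.6% of all genes. LYN was high at 11.27 ± 0.079, and BTK (10.37 ± 0.069), PTK2 (9.71 ± 0.10), CSK (9.35 ± 0.063), SYK (9.30 ± 0.066) and FYN (9.28 ± 0.074) were middle. TEC was borderline at 5.47 ± 0.15, and ABL2 (4.52 ± 0.18), LCK, FGR (4.33 ± 0.18) and FRK (4.26 ± 0.073) were the lowest.

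Of 17 NF-kB pathway genes, 15 (88.2%) lay above background, against 54.6% of all genes, and none was high. IRAK1 lay between middle and high at 10.46 ± 0.053, and MYD88 (9.38 ± 0.095), RELA (9.30 ± 0.14), NFKBIA (8.99 ± 0.11), IKBKB (8.53 ± 0.16) and NFKB1 (8.47 ± 0.11) were middle. NFKB2 (6.28 ± 0.15), TRAF6 (5.90 ± 0.25) and BCL3 (5.50 ± 0.13, borderline) were dimmer, and RELB was at background at 5.14 ± 0.21. NFKB2 fell to background with the mean of its 3 probe sets.

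Of 16 BCL2 family genes, 12 (75%) lay above background, against 54.6% of all genes. The survival genes MCL1 and BCL2L1 were joined by BCL2L2 (6.48 ± 0.13) in or above the middle band. Another member of the family, BCL2L13 (6.57 ± 0.15), was middle too. BCL2 itself was middle at 6.19 ± 0.23 on 1 of 4 probe sets, with 3 at background, and it fell to background with the mean of its probe sets. BCL2A1 was at background at 4.70 ± 0.19. Of the death-promoting members, BID (10.11 ± 0.10), BAX (9.02 ± 0.064), PMAIP1 (8.75 ± 0.042), BAD (6.88 ± 0.10), BAK1 (6.18 ± 0.14), BCL2L11 (5.98 ± 0.064) and BBC3 (5.90 ± 0.22) were middle, and HRK (4.70 ± 0.10), BIK (4.61 ± 0.076) and BOK (4.50 ± 0.14) were at background.

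In the list of damage checkpoint genes and cell cycle inhibitors, 13 of 21 genes (61.9%) lay above background, near the 54.6% of all genes. CHEK1 (10.80 ± 0.13) and GADD45A (10.68 ± 0.034) were high, and RB1 (9.07 ± 0.11), ATM (8.61 ± 0.18), ATR (8.49 ± 0.10) and CHEK2 (8.30 ± 0.10) were middle. CDKN1A, a cell cycle inhibitor, was borderline at 5.85 ± 0.19, as were MDM2 (5.34 ± 0.17) and RBL1 (5.66 ± 0.12), and MDM4 (5.09 ± 0.14), CDKN1C (4.80 ± 0.14), CDKN2B (4.80 ± 0.19) and TP73 (4.35 ± 0.060) were at background. CDKN2A stood just above the limit at 5.67 ± 0.084 and fell to background with the mean of its 3 probe sets.

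Of 25 cyclins, cyclin-dependent kinases and replication genes, 22 lay above background and 8 were high: CDK4 (11.85 ± 0.043), PCNA (11.81 ± 0.10), CCND2, CCND3, MCM2 (11.26 ± 0.049), CCNB2 (11.10 ± 0.13), CDK1 (10.69 ± 0.073) and AURKA (10.69 ± 0.069). CDK6, the other partner of D-type cyclins, was borderline at 5.42 ± 0.29 and above the limit on 1 of 6 arrays, and CCNA1 (4.48 ± 0.11), the germ-cell cyclin, was at background with CCND1. Of 23 chromatin, splicing and other regulators listed for myeloid neoplasms, 22 lay above background, with NPM1 (14.08 ± 0.047), SRSF2 (13.06 ± 0.061), U2AF1 (12.98 ± 0.062), SF3B1 (12.13 ± 0.11), DNMT1 (11.88 ± 0.065) and SUZ12 (10.83 ± 0.087) high. The lowest were EZH1 (6.35 ± 0.28), IDH2 (6.19 ± 0.17), DNMT3A (5.84 ± 0.10) and TET1 (4.47 ± 0.13), of which only TET1 was at background.

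Metabolic genes had the largest share of high members among lineage, receptor, signalling and metabolic genes. Of 223, 177 (79.4%) lay above background and 71 (31.8%) were high, against 54.6% and 9.32% of all genes. In glycolysis, 20 of 32 genes (62.5%) lay above background and 12 (37.5%) were high, and each step from hexokinase to lactate dehydrogenase had a high member: HK1 (11.23 ± 0.12), GPI (11.67 ± 0.037), PFKP (10.93 ± 0.037), ALDOA (13.37 ± 0.085), TPI1 (12.74 ± 0.076), GAPDH (14.39 ± 0.074), PGK1 (12.64 ± 0.035), PGAM1 (12.55 ± 0.049), ENO1 (13.08 ± 0.076), PKM (11.72 ± 0.10), LDHA (13.52 ± 0.13) and LDHB (14.04 ± 0.068). PKM had 1 of 3 probe sets at background and PGK1 1 of 6.

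Other isoforms of these enzymes and the glucose transporters lay in several bands. At background were PGAM2 (4.86 ± 0.14), LDHC (4.86 ± 0.14), PGK2 (4.49 ± 0.10), HK3 (4.74 ± 0.12) and the glucose transporters SLC2A2 (4.19 ± 0.081) and SLC2A4 (4.54 ± 0.076). PKLR, the red cell and liver form given above with the erythroid genes, was at background too. The transporters SLC2A3 (9.05 ± 0.23) and SLC2A1 (8.47 ± 0.082), both middle, carry glucose into most blood cells, and SLC2A1 had its other probe set at background. The muscle form PFKM (9.85 ± 0.064) and the liver form PFKL (9.13 ± 0.092) of phosphofructokinase were middle, as were HK2 (9.24 ± 0.062), ALDOC (9.01 ± 0.18) and ENO2 (7.89 ± 0.14), and the muscle enolase ENO3 was borderline at 5.55 ± 0.24. Of the regulators that make the activator of phosphofructokinase, PFKFB3 was middle at 8.16 ± 0.10, PFKFB2 borderline at 5.28 ± 0.20, and PFKFB4 (4.92 ± 0.064) and PFKFB1 (4.33 ± 0.13) at background, and BPGM, which diverts glycolysis in red cells, was at background as given above.

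The committed genes of gluconeogenesis were mostly at background. Of 13 genes for it and for glycogen, 6 lay above background and none was high. PCK1 (4.52 ± 0.12), FBP1 (5.01 ± 0.055), FBP2 (4.85 ± 0.13) and G6PC1 (4.12 ± 0.076) were at background, PC was borderline at 5.87 ± 0.24, and the mitochondrial PCK2 was middle at 7.20 ± 0.13. The glycogen genes PGM1 (10.37 ± 0.076), PYGL (8.42 ± 0.060), GBE1 (8.31 ± 0.088), PYGB (7.28 ± 0.049) and GYS1 (7.11 ± 0.19) were middle, and the muscle and liver forms PYGM (4.42 ± 0.076) and GYS2 (4.23 ± 0.058) were at background.

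All 21 pentose phosphate and redox genes lay above background, and 10 were high. SOD1 (13.49 ± 0.061), PRDX1 (13.24 ± 0.10), TKT (11.83 ± 0.036), TALDO1 (11.79 ± 0.041), GPX4 (11.56 ± 0.051) and catalase, CAT (11.55 ± 0.11), led in rank. The lowest were GSR (9.26 ± 0.15), SOD2 (8.54 ± 0.052), RPE (8.16 ± 0.15) and NQO1 (7.03 ± 0.12), all middle.

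The list for the citric acid cycle and its entry also held the malic enzymes ME1, ME2 and ME3 and the cytosolic MDH1 and IDH1. Of its 27 measured genes, 23 lay above background and 8 were high. High were MDH1 (12.55 ± 0.041), MDH2 (11.48 ± 0.060), CS (11.40 ± 0.089), PDHB (11.28 ± 0.10), SUCLG1 (10.91 ± 0.044), ME2 (10.87 ± 0.057), SDHC (10.70 ± 0.081) and DLD (10.69 ± 0.053), and IDH1 lay between middle and high at 10.48 ± 0.049. The NAD-linked isocitrate dehydrogenase subunits IDH3A (9.49 ± 0.16), IDH3B (9.19 ± 0.082) and IDH3G (9.80 ± 0.058) were middle, and so was IDH2 at 6.19 ± 0.17, with a rank of 49.2. Other genes of the list, SDHA, PDHA1, SUCLA2, SDHD, DLST, SUCLG2, PDHX, OGDH and ME3, were middle, from 7.34 for ME3 to 10.37 for SDHA. Of the kinases that switch off pyruvate entry, PDK1 was middle at 8.02 ± 0.11, PDK3 (5.73 ± 0.28) and PDK2 (5.62 ± 0.19) were borderline and PDK4, the form of fasted muscle and heart, was at background at 4.61 ± 0.16. ME1 was at background at 4.34 ± 0.16.

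Of 19 respiratory chain genes, 15 lay above background and 14 were high, among them ATP5F1A (13.38 ± 0.044), COX6A1 (13.33 ± 0.074), COX5A (12.67 ± 0.064), ATP5F1B (12.48 ± 0.068) and COX4I1 (12.41 ± 0.082). The heart and muscle forms COX6A2 (5.63 ± 0.13, borderline) and COX7A1 (4.44 ± 0.15, at background) lay in lower bands than COX6A1 and COX7A2 (11.72 ± 0.062). UCP2, the most widely expressed uncoupling protein, was high at 12.77 ± 0.051, and UCP1 (4.64 ± 0.16) and UCP3 (4.87 ± 0.25) were at background.

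**Figure D5:**
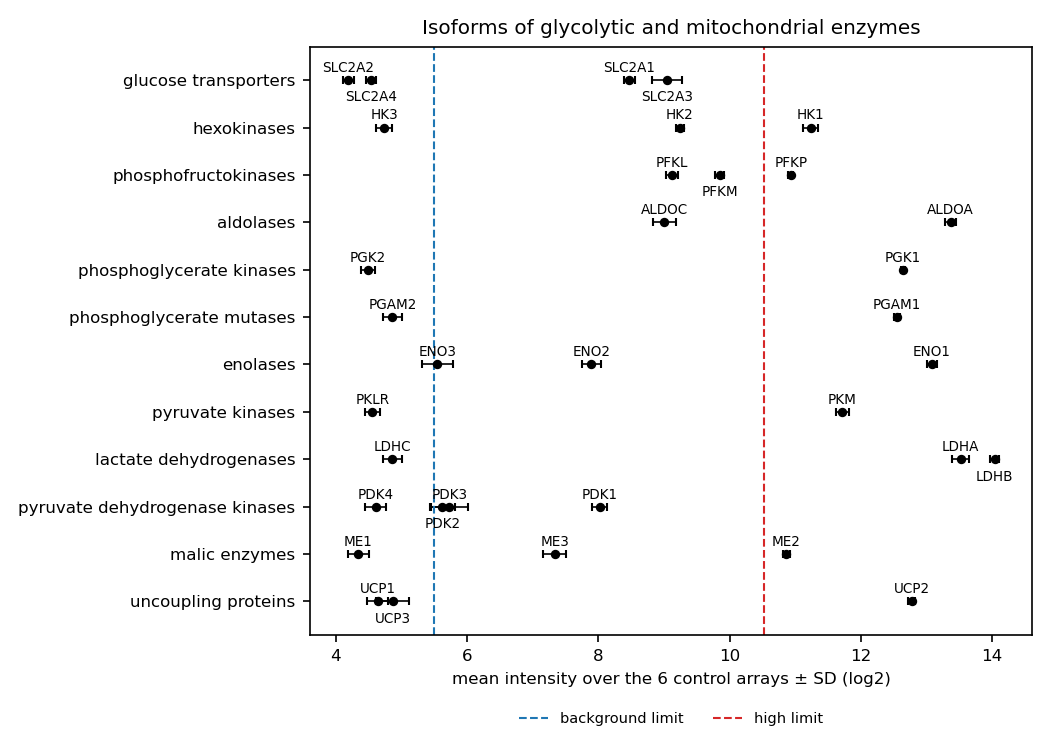
Mean log2 intensity ± SD over the 6 control arrays (horizontal axis) of isoforms of glycolytic and mitochondrial enzymes and transporters (1 row per family), with the mean background limit (blue) and high limit (red). Families from hexokinases to lactate dehydrogenases have at least 1 isoform above the high limit, and PGK2, PGAM2, PKLR, LDHC, PDK4, ME1, UCP1 and UCP3 lie under the background limit.

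Of 23 cholesterol genes, 20 lay above background: SQLE (12.04 ± 0.092), IDI1 (11.56 ± 0.17) and FDPS (10.90 ± 0.14, with its other probe set at background) were high, and ACAT2, LSS, HMGCS1, INSIG1, MSMO1, EBP, CYP51A1, PMVK, DHCR7, HSD17B7, SCAP, TM7SF2, NSDHL, SREBF2, SREBF1, MVK and ABCG1 were middle, from 6.32 for ABCG1 to 10.19 for ACAT2. The enzymes MVD (5.71 ± 0.15) and SC5D (5.51 ± 0.18) were borderline, and ABCA1, which exports cholesterol, was at background at 4.42 ± 0.19. Of 26 fatty acid genes, 21 lay above background, with ELOVL5 (12.10 ± 0.077), FABP5 (11.69 ± 0.068), ACLY (11.47 ± 0.060) and HADHB (10.73 ± 0.082) high, HADHA middle at 10.44 ± 0.054 and SCD between middle and high at 10.33 ± 0.16. CPT1B, the muscle form of the carnitine transferase, was borderline at 5.54 ± 0.32, and LPL (4.73 ± 0.17), ELOVL2 (4.42 ± 0.063), FABP4 (4.32 ± 0.12) and ACADL (4.22 ± 0.026) were at background.

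Of 23 nucleotide genes, 21 lay above background and 9 were high, led in rank by RRM2 (13.15 ± 0.056), a subunit of ribonucleotide reductase, IMPDH2 (12.39 ± 0.074), GMPS (11.65 ± 0.038), GART (11.58 ± 0.056), PAICS (11.45 ± 0.045) and ATIC (11.43 ± 0.082). IMPDH1 (6.92 ± 0.046) and DHODH (6.51 ± 0.12) were middle, TK2 was borderline at 5.50 ± 0.11 and SAMHD1, which degrades deoxynucleotides in resting myeloid cells, was at background at 5.17 ± 0.17.

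Of 17 serine, glycine and one-carbon genes, 12 lay above background. High were TYMS (12.85 ± 0.031), AHCY (11.91 ± 0.066), MTHFD2 (11.85 ± 0.071), SHMT2 (11.67 ± 0.056), MTHFD1 (10.86 ± 0.044) and MAT2A (10.84 ± 0.14); for TYMS, 1 of 3 probe sets lay above background. Serine synthesis was middle, PSAT1 at 9.48 ± 0.11, PHGDH at 8.57 ± 0.088 and PSPH at 6.72 ± 0.23, as were MTR (9.15 ± 0.047) and MTRR (9.77 ± 0.045). The mitochondrial SHMT2 was high and the cytosolic SHMT1 lay just above the limit at 5.76 ± 0.15 and fell to background with the mean of its 2 probe sets. The liver genes MAT1A (4.65 ± 0.18), GNMT (4.66 ± 0.11) and BHMT (4.36 ± 0.12) and the glycine cleavage genes AMT (4.74 ± 0.18) and GLDC (4.41 ± 0.11) were at background.

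Of 22 amino acid transport and glutamine genes, 18 lay above background and 5 were high: OAT (12.16 ± 0.068), ODC1 (11.73 ± 0.072), the glutamine synthetase GLUL (11.61 ± 0.068), SLC38A2 (11.10 ± 0.090) and the cationic transporter SLC7A1 (10.83 ± 0.031). GOT2 was middle at 10.40 ± 0.10. SLC7A8 (4.89 ± 0.21), SLC1A3 (4.72 ± 0.16), ARG1 (4.64 ± 0.11) and SLC1A1 (4.33 ± 0.072) were at background.

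The 25 brightest genes of control HEL cells were mostly ribosomal and translation genes, with ACTB, TUBA1B, GAPDH, PPIA and the fetal globins. They were RPL23A (15.07 ± 0.052), RPL4, RPL37A, EEF1A1, HBG2, RPL41, RPL13A, HBG1, RPL17, RPL32, RPS18, ACTB, RPL31, RPLP1, RPS23, RPS6, GAPDH, RPS24, RPL21, TUBA1B, TPT1, NACA, PPIA, RPS10 and RPL19 (14.28 ± 0.040). HBG1 and HBG2 were the only members of this set from a lineage list. Gene length also differed between bands, with a median of 19.0 kb for high genes, 33.5 kb for middle genes and 25.6 kb for genes at background in RefSeq, and its part in the bands was not tested.

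The 2 control groups were close to each other. No gene differed by more than 1 between the mean log2 values of the Luc and GFP arrays, 14 differed by more than 0.5, and 9 of these lay above background. Among genes above background, the largest SDs over the 6 arrays belonged to POLQ (7.47 ± 0.56), a DNA polymerase of end joining, ZNF236 (7.86 ± 0.56), LINC00680 (8.40 ± 0.49), SCAF4 (8.10 ± 0.47), RFX3 (6.88 ± 0.45), CTTNBP2NL (7.33 ± 0.41), TNFRSF14 (6.51 ± 0.41), CEP152 (6.86 ± 0.41), CENPT (6.35 ± 0.41) and GOLGA8A (10.24 ± 0.39). POLQ had a GFP mean of 7.03 and a Luc mean of 7.90. For POLQ, LINC00680, SCAF4, RFX3, CEP152 and GOLGA8A each Luc array lay above each GFP array. Their group means differed by between 0.60 (GOLGA8A) and 0.86 (POLQ), so their SDs hold a difference between the control groups. For ZNF236, CTTNBP2NL, TNFRSF14 and CENPT the arrays of the groups overlapped. None of the 10 genes with the largest SDs belongs to the lists above. Above background in one control group and at background in the other were 8 genes, CHRNA7, ENTPD7, LGR4, LRRC37A, PAIP2B, PLA2G6, POLR2J4 and SLIRP-OT1, all borderline over the 6 arrays.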

How the data were processed

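RNA of each sample was isolated with Trizol, and 20 ng was amplified and biotin-labelled with a linear kit, per the labels' protocols. The authors deposited linear intensity values per probe set, made with RMA per the submitters' processing notes (version not given in the sources used here), which subtracts background, equalises the arrays' distributions and compresses dim values. Here log2 was taken on the 6 control arrays, without a pseudocount. No sample was dropped, and no test was run; differences between the GFP and Luc means are given as descriptions. Median intensity per array lay between 46.3 and 49.1. With 6 arrays, precision is limited by their number.

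Of 22930 probe sets, 19303 with 1 gene symbol (platform annotation, symbols checked in RefSeq, 0 changed) gave 11884 genes. Left out were 524 control probe sets, 125 with several symbols, 114 of mouse or rat and 2864 without a symbol. Each gene took its probe set with the highest mean. Genes named: the 5 given markers and JAK2, all members of the main lists that are reported here, of other lists up to 6 highest and 4 lowest and borderline ones, the 25 brightest and the 10 with the largest SD. Further members of these other lists were named after their values were seen. The members and lists were chosen with earlier results of these data known. The banding was run on simulated data in which silent, middle and bright genes lay apart, so the run does not check calls near the limits. Alternatives were other limits, other probe set rules, quantile normalization, either control group alone and leaving out each array. Python 3.11.15, numpy 2.4.6 and pandas 2.3.3 were used.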

Additional observations from a re-analysis of the deposited data

Results flagged for a closer look

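Among data outside the description by gene, 897 of the 2864 probe sets without a gene symbol in the annotation (31.3%) lay above the background limit on all 6 control arrays, and 131 of them were high. What they measure was not named here. No probe set of mouse or rat origin did so.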

How the results depend on the processing

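The counts depended most on the background limit. At the 99th percentile of the restricted genes, which STAR and COL2A1 set, 1601 genes lay above it and 10004 at it. Above it were then 28 of the erythroid, 8 of the megakaryocyte and platelet, 1 of the granulocyte and monocyte, 0 of the lymphoid, 7 of the receptor, 41 of the signalling and 89 of the metabolic genes. With the limit at the lowest 30% of all genes, 2682 genes were at background, and 8 granulocyte and monocyte and 11 lymphoid genes lay above it. With the dimmest probe set of each gene, 41 receptor genes lay above background. A high limit at the 95th percentile gave 550 high genes and at the 80th percentile 2223.

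The other alternatives kept the counts for all genes and for the 3 classes and 4 lineage groups counted within 1.5 times: the 90th percentile limit (6953 genes above), a limit from the mouse and rat probe sets (7347, chosen after seeing the data), the mean of all probe sets (6450), quantile normalization (6492), GFP arrays only (6627), Luc arrays only (6537), and leaving out 1 array (6495 to 6565). Some of these alternatives could hardly lower the counts. RMA already equalises the arrays' distributions, so quantile normalization could change little. With fewer arrays a gene has fewer limits to pass, so its call can be lost only where another probe set becomes the brightest. Of 46 single lists, 5 moved by more than 1.5 times at the 90th percentile limit. So did 7 with the mouse and rat limit and 9 with the dimmest probe sets. At the 90th percentile limit these were fibroblast and stromal genes (7 above background), epithelial genes (2), receptor tyrosine kinases (10), TNF and death receptors (7) and Notch, Wnt and Hedgehog receptors (9). Epithelial genes also numbered 2 on the GFP arrays only and without the Luc 2 array, against 1. With the mean of all probe sets, 15 listed genes were no longer above background on all arrays: ACVR1B, BCL2, CDKN2A, ERG, IL9R, ITGB5, JAK3, MTOR, NFKB2, PPARD, REL, SFTPB, SHMT1, TNK2 and TYRO3, and 13 others came to lie above it. No paired analysis was possible because no result comes from a test between groups. Arrays cannot show a transcript whose probe sets lie at background to be absent.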
